A study of Arabidopsis thaliana with 12 samples.

Results

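The comparison described here is that of the Arabidopsis mutant npf8.4-1 with its reference accession Col-0 while nitrate was supplied. It takes 6 of the 12 libraries of the series, 3 of npf8.4-1 and 3 of Col-0, all labelled day 0. These members were chosen by their genotype and time labels. The plants were raised hydroponically for 15 days with 5 mM KNO3 as their nitrogen supply, in 16 h of light and 8 h of dark, and poly(A) RNA of young leaves was sequenced. Each library is a biological replicate made from a pool of 15 plants. Both groups share this medium and age, and they differ in the genotype label alone. The remaining 6 libraries, 3 per genotype, come from plants that had spent 2 further days without nitrogen (day 2). They are used below as separate libraries of the same genotypes. The mutant is 1 line, and where its mutation lies is not stated in the labels, so an effect of NPF8.4 and any other difference between the line and Col-0 cannot be told apart.

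NPF8.4, also called PTR4, is one of the proton-coupled NPF transporters, in a branch best known for carrying peptides, and its protein sits in the tonoplast, the membrane around the vacuole. It has been described as a carrier of glycerate, the last intermediate that photorespiration returns to the chloroplast, and so as a link between carbon stored in the vacuole and nitrogen status. In leaves, nitrate itself acts as a signal that induces reductase genes and regulators such as the BT and LBD families, while sugar and energy status act on another set of genes through bZIP factors and trehalose 6-phosphate.

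The 6 libraries held 29096967 to 33547512 reads in exons, and 19416 genes had enough reads to be tested. Levels are given as CPM, the reads of a gene scaled to the size of its library. In a principal component analysis of the 6 libraries the first component, 34.64% of the variance, separated the genotypes, with Col-0 between −24.93 and −18.03 and the mutant at 3.65 or more. The second component, 25.64%, ran within Col-0 from 23.52 in replicate 1 to −32.88 in replicate 3. In the mutant it was at 26.13 in replicate 1, −9.87 in replicate 2 and −6.87 in replicate 3. Mean levels of 33 touch, calcium and wounding genes also set Col-0 replicate 3 apart, at 3.91 log2 CPM. The other Col-0 libraries lay at 5.09 and 5.00 log2 CPM and those of the mutant at 4.68 to 5.26. For 30 heat and unfolded protein genes the mean level varied more between libraries. Replicates 1, 2 and 3 of Col-0 stood at 5.48, 3.96 and 3.18 log2 CPM. Those of the mutant stood at 4.49, 5.60 and 5.51 log2 CPM, so the groups overlapped. In this list Col-0 replicate 1 was above, and mutant replicate 1 below, the other libraries of its genotype. All 10 mesophyll markers were detected in the leaf libraries, with a summed level of 60681 to 74613 CPM in Col-0 and 57970 to 74685 CPM in npf8.4-1. Of 14 root markers 5 had no read in any of the 6 libraries, as had 7 of 10 pollen and seed markers and 3 of 13 meristem and flower markers. The others had reads. Root markers summed to 34.1 to 38.7 CPM in Col-0 and 36.4 to 37.5 CPM in npf8.4-1. Pollen and seed markers summed to 4.65 to 7.18 and 5.8 to 8.85 CPM, and meristem and flower markers to 2.89 to 3.26 and 3.22 to 4.42 CPM. Of the 18 tested vascular markers (summed level 551 to 669 CPM in Col-0 and 492 to 602 CPM in the mutant), as of the other marker lists, edgeR and DESeq2 called none. At an unadjusted p under 0.05, 1 vascular marker was higher and 2 were lower.

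On nitrate the leaf transcriptomes of the genotypes differed in few genes. In npf8.4-1, 23 genes (0.118% of those tested) were lower and 6 (0.0309%) were higher than in Col-0, in all 29 genes or 0.149%. The test was edgeR's quasi-likelihood fit, with p-values adjusted over all genes tested and a threshold of 0.05. The median log2 fold change of all genes tested was 0.00. In each of the 29 genes the 3 libraries of one genotype lay above the 3 of the other, where 7.52% of all genes tested did so with the mutant lower and 6% with the mutant higher. Of the 29 genes, 13 were lower and 3 higher by at least 2-fold. Before adjustment, 1450 genes had p under 0.05, of which 822 were lower and 628 higher. DESeq2 called all 29 genes and more, 123 lower (0.633%) and 109 higher (0.561%), together 1.19% of the genes. In bulk tissue, fewer cells of a type and less RNA per cell cannot be told apart.

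**Figure D1:**
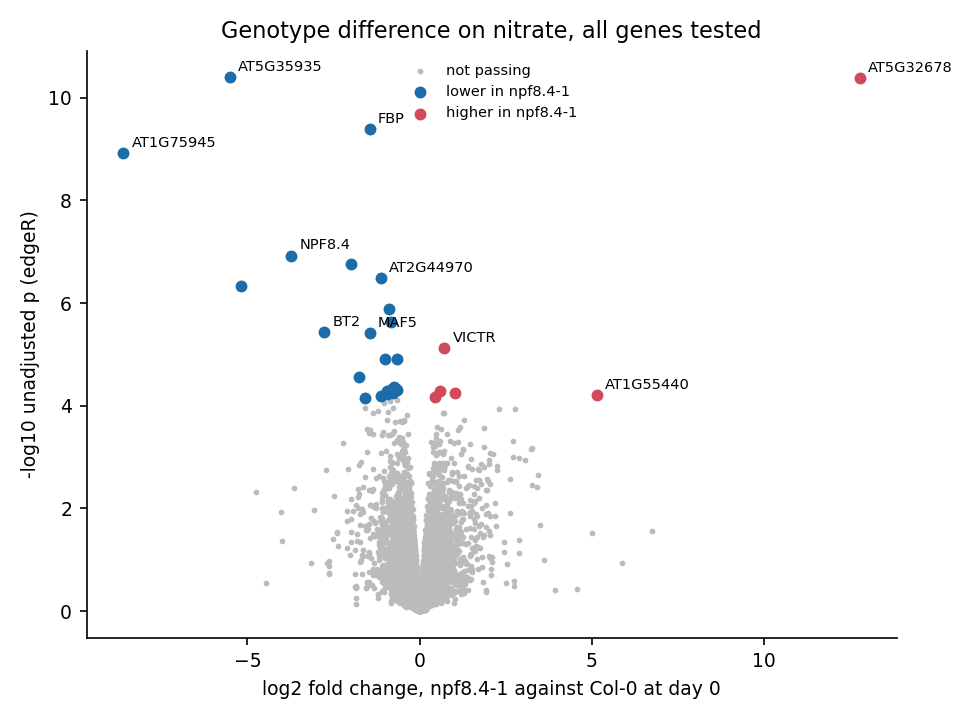
Each point is 1 of 19416 genes, with its log2 fold change of npf8.4-1 against Col-0 at day 0 (x axis) and −log10 of its unadjusted edgeR p (y axis); coloured points are the 23 lower and 6 higher genes past the adjusted threshold. Most of the 29 lie on the left, and the place of AT5G32678 on the x axis depends on the prior count of the fit because Col-0 had 0 reads.

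The calls differ in how much they rest on single libraries. Of the 29 genes, 11 passed in each of the 14 other fits that tested them: NPF8.4, FBP, AT2G44970, MAF5, AT2G15960, RMA1 and the loci AT1G75945, AT5G35935, AT3G05955, AT3G29644 and AT5G32678. The filter of at least 1 CPM removed AT3G05955. In the day 0 libraries fitted alone 18 of the 29 passed. The 18 genes outside these 11 lost their call in at least 1 of the 6 fits that left out 1 library, although all 29 kept their direction in every fit that tested them. Without Col-0 replicate 1, 2 or 3 the calls were 12, 12 and 30, of which 12, 12 and 19 were among the 29. Without npf8.4-1 replicate 1, 2 or 3 they were 21, 13 and 17, of which 17, 12 and 16 were among the 29.

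The mutated gene was checked first. NPF8.4 (AT2G02020, chromosome 2, 478977 to 481185, plus strand, TAIR10) had 7.91, 7.02 and 5.20 CPM in the Col-0 libraries and 0.795, 0.337 and 0.346 CPM in the npf8.4-1 libraries. Every mutant library was thus below every Col-0 library, with some transcript left in each. The mean was 6.71 ± 1.38 CPM in Col-0 and 0.493 ± 0.262 CPM in the mutant (SD, n = 3). On the log2 scale the mutant differed by −3.74 (SE 0.34, edgeR adjusted p = 0.000461). The other 4 members of the NPF8 branch did not pass. NPF8.3, the di- and tripeptide transporter PTR2 encoded near NPF8.4, was at 33.1, 34.2 and 31.6 CPM in Col-0 and 31.6, 32.1 and 33.2 CPM in npf8.4-1 (log2 fold change −0.03, adjusted p = 0.989). The log2 fold changes of NPF8.1 (0.04), NPF8.2 (−0.37) and NPF8.5 (−0.04) had adjusted p-values of 0.911 to 0.99. Of the 10 genes on each side of NPF8.4, 12 were tested. By edgeR none of these passed, none had an unadjusted p under 0.05, and DESeq2 called none; their log2 fold changes ran from −0.17 to 0.88 with a median of 0.04. Because NPF8.3 is a close paralog, a few of the NPF8.4 reads are uncertain.

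Several of the largest differences lay in loci with little annotation that were nearly silent in one genotype. AT5G32678, a pseudogene on chromosome 5 (12326881 to 12329676, plus strand), had 0 reads in each Col-0 library and 977, 749 and 776 reads in the npf8.4-1 libraries. It was at least 907-fold higher in the mutant, against a floor of 3 counts over the Col-0 group (edgeR adjusted p = 4.08e-07). AT1G75945, an uncharacterized protein-coding gene on chromosome 1 (28515245 to 28515916), showed the reverse, with 198, 177 and 194 reads in the reference and 1, 0 and 0 in the mutant. The ratio of Col-0 to npf8.4-1 was 523 (95% counting interval 93.5 to 20691, edgeR adjusted p = 5.83e-06). AT5G35935, a second pseudogene on chromosome 5 (14083388 to 14089891), had 519, 586 and 605 reads in Col-0 and 21, 8 and 5 in the mutant (log2 fold change −5.52, SE 0.27, adjusted p = 4.08e-07). These 3 loci separated the genotypes with no overlap and by far more than the spread within a genotype.

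A pair of long noncoding RNA genes 84.6 kb apart on chromosome 3 was also lower in npf8.4-1. AT3G05955 (11586005 to 11586548) had 30, 31 and 32 reads in Col-0 and 1, 0 and 1 in the mutant, a ratio of 42.7 (95% counting interval 11.5 to 358, edgeR adjusted p = 0.00111). AT3G29644 (11498879 to 11501424) had 4.27, 4.71 and 4.52 CPM in Col-0 and 1.08, 1.18 and 1.11 CPM in the mutant (log2 fold change −2.00, SE 0.20, adjusted p = 0.000551). AT3G29644 overlaps the pseudogene AT3G29642 on the other strand by 471 bases, and that pseudogene had no reads at day 0. AT1G55440, which encodes a cysteine- and histidine-rich C1 domain protein, had 2, 2 and 0 reads in Col-0 against 23, 43 and 75 in the mutant (log2 fold change 5.15, SE 0.87, adjusted p = 0.0459). Its mutant libraries ranged from 0.732 to 2.59 CPM, above all Col-0 libraries, and its call was kept only without npf8.4-1 replicate 1. It ended without Col-0 replicate 1, 2 or 3 and without npf8.4-1 replicate 2 or 3 (adjusted p 0.104 to 0.269). AT3G05955, AT3G29644 and AT1G55440 lay under the 5 CPM of the naming rule, as did AT5G14360, AT3G24420 and AT2G24240, and these 6 are given because all 29 genes are.

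**Figure D2:**
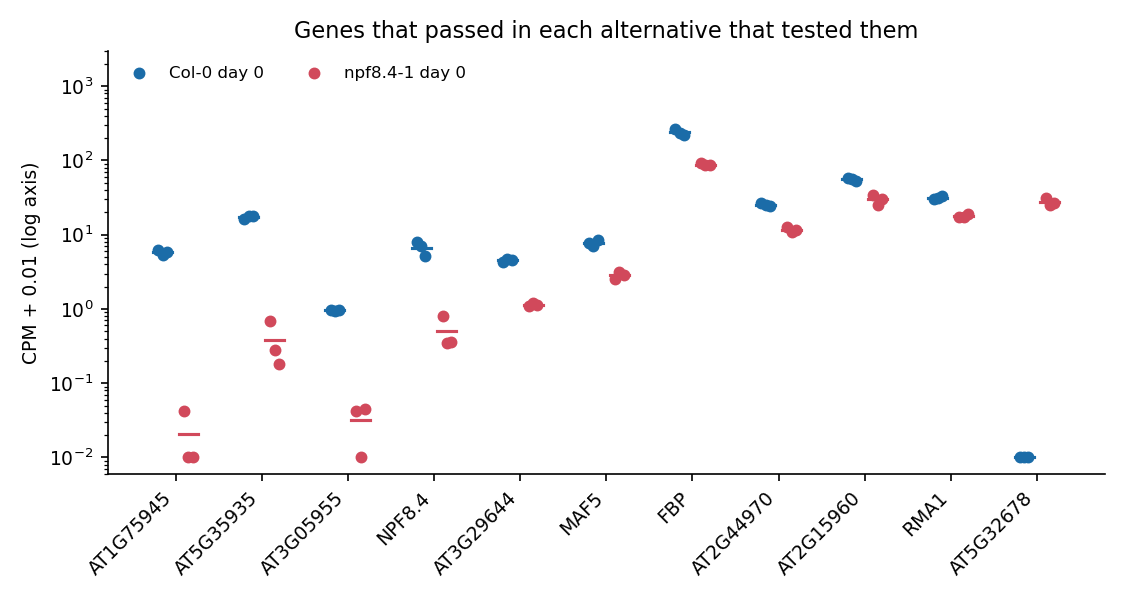
CPM plus 0.01 on a log axis for the 11 genes that passed in each fit that tested them; each point is 1 library (blue Col-0 day 0, red npf8.4-1 day 0) and each bar the mean of 3 libraries. The points of the genotypes do not overlap in any of the 11 genes, and AT5G32678 is the one gene with the mutant above Col-0.

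Among genes of primary carbon metabolism, FBP fell in the mutant. FBP (AT1G43670, chromosome 1, 16467298 to 16470500, plus strand) encodes the cytosolic fructose-1,6-bisphosphatase, which opens the route from exported triose phosphates to sucrose. It was at 261, 237 and 222 CPM in Col-0 and at 91.7, 85.5 and 86.8 CPM in npf8.4-1. The libraries of each genotype lay close together, and the log2 fold change was −1.45 (SE 0.09, edgeR adjusted p = 2.66e-06), a 2.73-fold difference. CFBP1, the plastid fructose-1,6-bisphosphatase of the Calvin-Benson cycle, did not pass (−0.04, adjusted p = 0.99), nor did SPS1F, a sucrose phosphate synthase (0.10, adjusted p = 0.969). In the list of 25 tested genes of sucrose synthesis and sugar transport, FBP was the 1 gene that fell by edgeR, none rose, and the median log2 fold change was −0.10. At an unadjusted p under 0.05, 5 of the 25 were lower and 0 higher.

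TPS11, a class II trehalose phosphate synthase of the kind repressed by sugars, fell as well. It was at 118, 108 and 79.6 CPM in Col-0 and 56.7, 42.3 and 42.0 CPM in npf8.4-1 (−1.11 on the log2 scale, SE 0.18, edgeR adjusted p = 0.0459). The TPS11 call ended without Col-0 replicate 1 or 2 and without npf8.4-1 replicate 2 or 3 (adjusted p 0.179 to 0.245). Among its relatives, TPS8 (−0.66, adjusted p = 0.313), TPS9 (−0.53, adjusted p = 0.679) and TPS10 (−0.49, adjusted p = 0.475) did not pass. Of 17 trehalose phosphate synthase and phosphatase genes, TPS11 alone fell by edgeR and none rose, with a median of −0.11. At an unadjusted p under 0.05, 4 were lower and 3 higher, and the log2 fold changes reached 1.87.

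Of the nitrate-responsive regulators, BT2 fell. BT2 (AT3G48360, chromosome 3, 17907767 to 17910738, minus strand) encodes a scaffold protein with BTB and TAZ domains that is induced by nitrate and repressed by sugar. It was at 104, 111 and 54.8 CPM in Col-0 and 12.1, 10.2 and 16.9 CPM in npf8.4-1. Col-0 replicate 3 was the lowest of its group and still above every mutant library. The mean was 90.0 ± 30.7 CPM in Col-0 and 13.1 ± 3.48 CPM in the mutant (SD, n = 3). The difference was −2.78 on the log2 scale (SE 0.32, edgeR adjusted p = 0.00612). The call ended without npf8.4-1 replicate 1 (adjusted p = 0.0551) or replicate 2 (0.0574), and in the day 0 libraries fitted alone (0.098). BT1, its closest relative, did not pass, with 26.1, 27.5 and 15.0 CPM in Col-0 and 11.9, 9.92 and 10.7 CPM in the mutant (−1.08, SE 0.22, adjusted p = 0.108), but it passed without Col-0 replicate 3 (−1.31, adjusted p = 0.00646). BT5, of the same family, lay on the other side of 0, at 0.56 (adjusted p = 0.436). In Col-0, BT2 differed between day 2 and day 0 by −4.76 (SE 0.36), a comparison that shares the Col-0 day 0 libraries. In that comparison 21 of the 29 genes passed, 10 lower and 11 higher without nitrogen, where 60.0% of all genes tested did (30.4% lower and 29.6% higher).

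Of 26 tested nitrate-responsive regulators, BT2 fell, none rose and the list median was −0.24, beside 0.00 for all genes. In 9 of the 26 the mutant libraries lay below all Col-0 libraries (against 7.52% of all genes tested), and in none above (against 6%). The kinase gene CIPK3 stood just outside the threshold, at 58.3, 55.2 and 41.5 CPM in Col-0 and 36.1, 29.4 and 31.9 CPM in npf8.4-1 (−0.67, SE 0.12, edgeR adjusted p = 0.0503). The nitrate-induced repressors LBD37 (−0.30, adjusted p = 0.955), LBD38 (−0.76, adjusted p = 0.422) and LBD39 (−0.62, adjusted p = 0.422) did not pass although their libraries did not overlap. HHO3, a GARP repressor of the NIGT1 type, was at −0.59 (adjusted p = 0.318), and HHO1 and HRS1 had 0 reads in all 6 libraries. By DESeq2, 3 of the 26 were lower, namely BT2, BT1 and CIPK3.

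None of the 13 genes of nitrate and nitrite reduction passed by edgeR, where 6 had an unadjusted p under 0.05, all lower, and DESeq2 called 1, CNX6. Their median was −0.23, and in 7 of 13 the libraries of the mutant lay below those of Col-0, against 7.52% of all genes tested. NIA1, a nitrate reductase, was at 181, 197 and 129 CPM in Col-0 and 113, 128 and 79.9 CPM in the mutant (−0.66, SE 0.25, edgeR adjusted p = 0.52). NIA2, the main leaf nitrate reductase, was at −0.23 (adjusted p = 0.945) with overlapping libraries. NIR1, nitrite reductase, was at 269, 289 and 228 CPM and 199.6, 224 and 178 CPM (−0.38, SE 0.17, adjusted p = 0.633). UPM1, which makes the sirohaem cofactor of nitrite reductase, was at −0.68 (adjusted p = 0.454). In nitrate transport none of 19 genes passed, 4 had an unadjusted p under 0.05 and DESeq2 called 1 (NPF2.7, higher). Its members NRT2.1, a high-affinity transporter, and CLC-A, the nitrate exchanger of the tonoplast, were at −1.65 (adjusted p = 0.416) and −0.30 (adjusted p = 0.649).

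**Figure D3:**
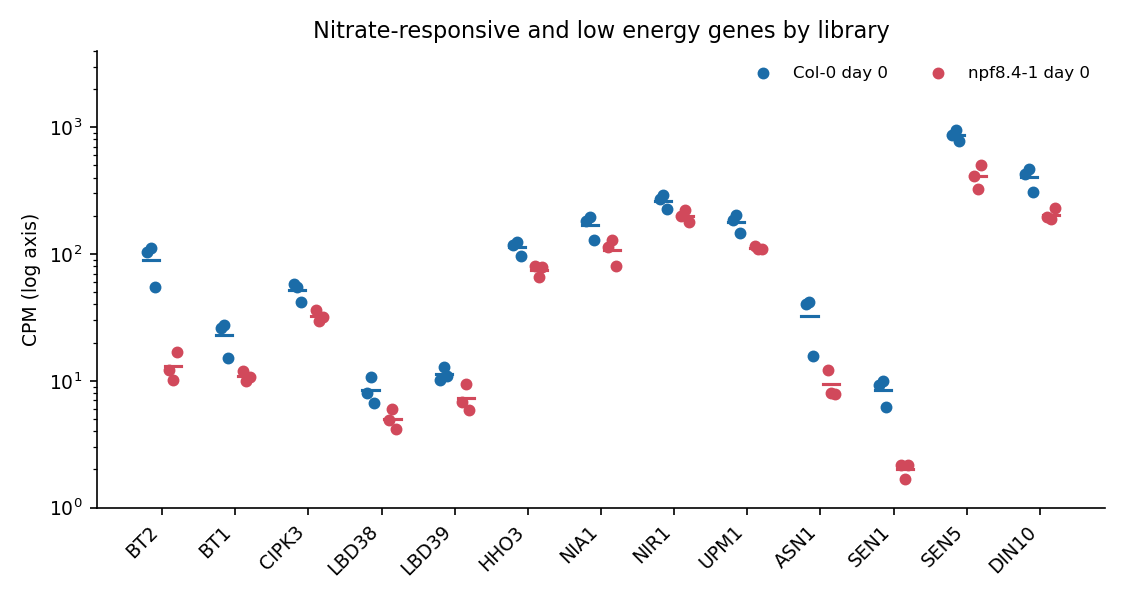
CPM on a log axis in the 6 day 0 libraries (blue Col-0, red npf8.4-1; bars are means of 3) for 13 nitrate-responsive and low energy genes, chosen after their values were seen. Each of the 13 genes has its mutant points below its Col-0 points, which follows from that choice and is no result about the lists. Among them only BT2 passed the edgeR test. Members of the same lists with overlapping libraries, such as BT5 and NIA2, are not shown.

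Downstream of nitrate, the glutamine synthetase genes GLN2 and GLN1;1 did not pass. GLN2, the plastid enzyme that takes up photorespiratory ammonium, was at −0.14 (edgeR adjusted p = 0.934) and the cytosolic GLN1;1 at −0.10 (adjusted p = 0.969). ASN1, an asparagine synthetase induced by darkness and low sugar, was at 40.1, 41.8 and 15.8 CPM in Col-0 and 12.2, 8.00 and 7.92 CPM in npf8.4-1 (−1.79, SE 0.51, adjusted p = 0.331). The groups did not overlap, but Col-0 replicate 3 was far below the other Col-0 libraries. None of 20 ammonium and amide genes passed, 5 had an unadjusted p under 0.05, all lower, and DESeq2 called 1, the glutamate dehydrogenase gene GDH2 (−0.51 by edgeR). CC-type glutaredoxins, several of them nitrate-regulated, had the lowest median of the lists with at least 5 tested members, −0.45. None of the 17 passed by edgeR, 7 were lower at an unadjusted p under 0.05 (822 of all 19416 genes were) and DESeq2 called 1 (GRXS8). In 3 of the 17 the mutant libraries lay below all Col-0 libraries, against 7.52% of all genes tested. The mean level of the list was 1.28, 0.85 and 0.19 log2 CPM in Col-0 and 0.43, 0.34 and −0.04 log2 CPM in npf8.4-1. The groups thus overlapped, with Col-0 replicate 3 below mutant replicates 1 and 2. Reads of these glutaredoxin genes are uncertain because of close paralogs.

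No photorespiration gene passed on nitrate by edgeR or DESeq2 among 28 tested. Of these 1 had an unadjusted p under 0.05, and the log2 fold changes ran from −0.27 to 0.24 with a median of −0.04. GLYK, the glycerate kinase that ends the cycle, was at 274, 252 and 225 CPM in Col-0 and 258, 236 and 215 CPM in the mutant (−0.08, SE 0.10, edgeR adjusted p = 0.98). HPR1, the peroxisomal hydroxypyruvate reductase that makes glycerate, was at −0.03 (SE 0.10, adjusted p = 0.992), and PLGG1, the plastid glycolate and glycerate transporter, at −0.07 (SE 0.14, adjusted p = 0.988). Of 42 photosystem and antenna genes none passed by either test and none had an unadjusted p under 0.05 (median −0.11). Of 21 Calvin-Benson genes none passed by edgeR, 1 had an unadjusted p under 0.05 and DESeq2 called 1, CP12-3 (median −0.03).

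Of 25 low energy genes, which are induced when sugar is short, none passed by edgeR, while 8 were lower and 2 higher at an unadjusted p under 0.05, and the median was −0.30. In 9 of 25 the mutant libraries lay below all Col-0 libraries (against 7.52% of all genes tested) and in 1 above (against 6%). DESeq2 called 4 of them lower, SEN1, SEN5, MCCA and BGAL4. SEN5 was at 871, 945 and 780.1 CPM in Col-0 and 412, 325 and 504 CPM in npf8.4-1 (−1.07, SE 0.21, edgeR adjusted p = 0.106). SEN1 was at 9.34, 9.94 and 6.16 CPM and 2.16, 1.69 and 2.18 CPM (−2.07, SE 0.50, adjusted p = 0.195). DIN10, a raffinose synthase family gene, was at −0.97 (SE 0.42, adjusted p = 0.645).

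An acyl-CoA-binding protein gene, an acyl-activating enzyme gene and a pair of alpha/beta-hydrolase genes fell in the mutant. ACBP3, an acyl-CoA-binding protein linked to phospholipid turnover and autophagy, was at 38.7, 38.0 and 29.3 CPM in Col-0 and 19.4, 16.3 and 16.8 CPM in npf8.4-1 (−1.01, SE 0.15, edgeR adjusted p = 0.0156). It was the 1 gene of the 6 acyl-CoA-binding proteins that fell by edgeR, and ACBP6, the cytosolic member, was at −0.14 (adjusted p = 0.86). At an unadjusted p under 0.05, 2 of the 6 were lower and 0 higher. ACBP3 shares 125 bases with VEP1 on the other strand, which was at −0.09 (adjusted p = 0.98). AT2G44970, an alpha/beta-hydrolase with a PGAP1-like domain, was at 26.4, 25.3 and 24.2 CPM and 12.5, 10.7 and 11.4 CPM (−1.13, SE 0.12, adjusted p = 0.000912). The acyl-activating enzyme gene AAE17 (−0.81, SE 0.13, adjusted p = 0.0455) and AT3G24420, annotated by its alpha/beta-hydrolase superfamily alone (−1.59, SE 0.27, adjusted p = 0.0464), fell as well. The ACBP3 call ended without Col-0 replicate 1 or 2 and without npf8.4-1 replicate 2 or 3 (adjusted p 0.104 to 0.144). AAE17 kept its call only without npf8.4-1 replicate 3 and AT3G24420 only without Col-0 replicate 3, with adjusted p-values up to 0.264 and 0.233 without any of the others.

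Regulators that fell included MAF5, a MADS-box relative of the flowering repressor FLC. MAF5 (AT5G65080, chromosome 5, 25997504 to 26002619, plus strand) was at 7.82, 6.96 and 8.46 CPM in Col-0 and 2.51, 3.14 and 2.83 CPM in npf8.4-1 (−1.45, SE 0.19, edgeR adjusted p = 0.00612). FLC itself was under 1 CPM in each of the 6 libraries (0.20, adjusted p = 0.989), and MAF4, its neighbour in the same cluster, was at −0.67 (adjusted p = 0.422). Of 23 flowering genes MAF5 alone fell by edgeR and none rose (median −0.08). At an unadjusted p under 0.05, 5 were lower and 0 higher. In 6 of the 23 the mutant libraries lay below all Col-0 libraries (against 7.52% of all genes tested) and in 1 above (against 6%). RMA1, a membrane-anchored RING ubiquitin ligase of the endoplasmic reticulum, was at 29.8, 31.6 and 33.6 CPM and 17.2, 17.2 and 18.9 CPM (−0.83, SE 0.10, adjusted p = 0.00462). The B-box factor gene BBX17 (−0.77, SE 0.13, adjusted p = 0.0455), the ubiquitin-like gene AT5G14360 (−1.76, SE 0.28, adjusted p = 0.0336) and the BTB and WD40 repeat gene AT2G24240 (−0.94, SE 0.16, adjusted p = 0.0455) fell too. BBX17 kept its call only without Col-0 replicate 3 (adjusted p up to 0.235 otherwise). AT5G14360 and AT2G24240 lost theirs without any single library (0.0655 to 0.171 and 0.0599 to 0.245).

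A further group of genes that fell carries names from stress, kinase or developmental studies. MEE14, a gene named for maternal effect embryo arrest, was at 196, 204 and 189 CPM in Col-0 and 86.7, 84.7 and 132 CPM in npf8.4-1 (−0.96, SE 0.16, edgeR adjusted p = 0.0459), and mutant replicate 3 stood above the other mutant libraries. AT2G15960, annotated as a stress-induced protein and 24.9 kb from MEE14 on chromosome 2, was at 58.4, 55.9 and 53.0 CPM and 34.4, 24.9 and 30.3 CPM (−0.90, SE 0.11, adjusted p = 0.00287). The lectin receptor kinase gene AP4.3A, also called LecRK-S.2 (−0.74, SE 0.12), the universal stress protein gene AT3G62550 (−0.69, SE 0.11) and the cold-regulated chloroplast membrane protein gene COR413IM1 (−0.66, SE 0.11) had an adjusted p of 0.0455 each. AT1G21680, which encodes a protein with a DPP6 N-terminal-like domain, was at −0.66 (SE 0.10, adjusted p = 0.0156). The MEE14 call stood only without npf8.4-1 replicate 3, and AT3G62550 passed in none of the 6 fits without 1 library, with adjusted p-values of 0.0753 to 0.245 and 0.0568 to 0.233 where they failed. COR413IM1 kept its call only without npf8.4-1 replicate 1 (0.0727 to 0.217 otherwise). AP4.3A lost its call without Col-0 replicate 1 or 2 and npf8.4-1 replicate 2 or 3 (0.158 to 0.235), and AT1G21680 without replicate 1 or 2 of either genotype (0.0656 to 0.165).

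The genes that rose, other than AT5G32678 and AT1G55440, changed by small amounts. VICTR (AT5G46520), a TIR-NBS-LRR immune receptor, was at 6.96, 6.81 and 7.18 CPM in Col-0 and 10.9, 11.5 and 12 CPM in npf8.4-1 (0.72, SE 0.10, edgeR adjusted p = 0.0113). It was the 1 gene of 34 tested NLR receptor genes that rose by edgeR, none fell, and the list median was 0.10. At an unadjusted p under 0.05, 5 were higher and 2 lower. DESeq2 called 2 of the 34 higher, VICTR and RPS6, and 1 lower, CHS3. A CC-NBS-LRR receptor gene outside that list, AT1G62630, was at 10.7, 11.4 and 10.8 CPM and 18.4, 16.1 and 15.2 CPM (0.59, SE 0.10, adjusted p = 0.0455). AOX1A, the mitochondrial alternative oxidase, was at 16.5, 17.2 and 16.5 CPM and 24.5, 20.6 and 24.1 CPM (0.46, SE 0.08, adjusted p = 0.0459). AT1G48100, of the polygalacturonase family, was at 7.47, 6.57 and 7.27 CPM and 15.3, 16.1 and 12.1 CPM (1.03, SE 0.17, adjusted p = 0.0455). It overlaps the antisense gene AT1G07477 by 802 bases, and that gene had a mean of 0.206 CPM in Col-0 and 0.270 CPM in the mutant. The VICTR call ended without Col-0 replicate 1 or 2 and npf8.4-1 replicate 2 or 3 (adjusted p 0.0674 to 0.0984), and AT1G62630 passed in none of the 6 fits without 1 library (0.0675 to 0.2). AOX1A passed only without npf8.4-1 replicate 2 (0.103 to 0.232 otherwise) and AT1G48100 only without npf8.4-1 replicate 3 (0.0913 to 0.269 otherwise). Reads of close NLR paralogs are uncertain.

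**Figure D4:**
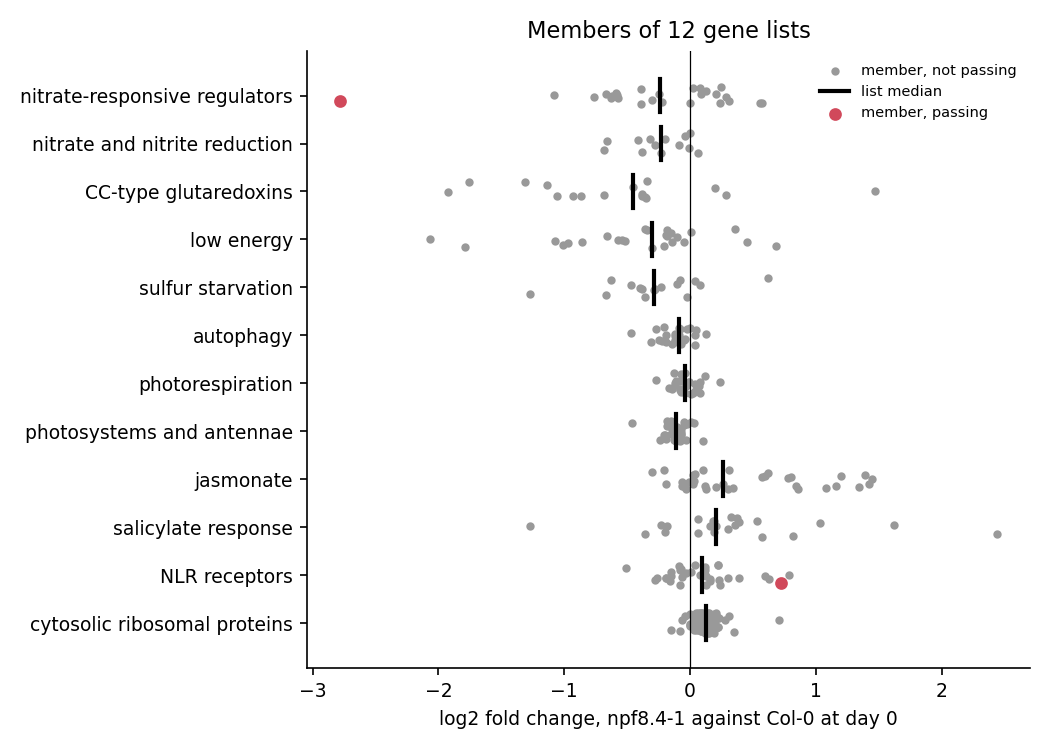
Log2 fold changes of npf8.4-1 against Col-0 at day 0 (x axis) for the tested members of 12 gene lists (grey, not passing; red, passing by edgeR; black bar, list median). BT2 and VICTR are the red points, and the medians of nitrate, glutaredoxin, low energy and sulfur starvation lists lie left of 0. Those of photosystems and antennae (−0.11), autophagy (−0.09) and photorespiration (−0.04) lie left of 0 as well. The lists that hold NPF8.4, FBP, TPS11, MAF5 and ACBP3 are not shown.

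Immune and hormone lists had few or no single calls. None of 35 jasmonate genes passed by edgeR, although 9 were higher at an unadjusted p under 0.05, none was lower, and DESeq2 called 3 higher (OPR3, JAZ8 and MYC2). Their median was 0.26, and in 9 of 35 the mutant libraries lay above all Col-0 libraries, against 6% of all genes tested. MYC2, a master regulator of jasmonate responses, was at 289.6, 233 and 169 CPM in Col-0 and 399, 363 and 444 CPM in npf8.4-1 (0.80, SE 0.22, edgeR adjusted p = 0.245). Touch, calcium and wounding genes had a median of 0.33, no call by edgeR among 33, 6 higher and 1 lower at an unadjusted p under 0.05 and 1 DESeq2 call (MYB15). Col-0 replicate 3 was the lowest library for the touch genes. The highest median of the lists with at least 5 tested members, 0.37, belonged to the 30 heat and unfolded protein genes. None of these 30 passed by edgeR or DESeq2 or had an unadjusted p under 0.05, and 3 had a negative fold change. The mean level of the jasmonate genes was 3.75, 3.52 and 3.44 log2 CPM in Col-0 and 4.40, 3.56 and 3.85 log2 CPM in npf8.4-1. Mutant replicate 1 was the highest, and mutant replicate 2 lay below Col-0 replicate 1, so the groups overlapped. The part of single libraries and of the touch genes in the jasmonate values was not tested. None of 23 salicylate genes passed by edgeR or DESeq2, 3 were higher at an unadjusted p under 0.05 (median 0.21), and PR1 had 0 reads in all 6 libraries. None of 34 auxin genes passed by edgeR, 7 were lower and 1 higher at an unadjusted p under 0.05, and DESeq2 called 1 lower, IAA4 (median −0.23).

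Ribosomal protein, cell division and clock lists had medians of 0.00 to 0.13. Of 165 cytosolic ribosomal protein genes none passed by edgeR, 1 had an unadjusted p under 0.05 and DESeq2 called 1; the median was 0.13, and 5 had a negative fold change. None of 32 cell division genes passed by either test, with 1 at an unadjusted p under 0.05 and a median of 0.12, and 2 had a negative fold change. None of 33 circadian clock genes passed by either test or reached an unadjusted p under 0.05 (median 0.00). In 16 sulfur starvation genes none passed by either test, 5 were lower and 1 higher at an unadjusted p under 0.05, and the median was −0.29. In 7 of the 16 the mutant libraries lay below all Col-0 libraries (against 7.52% of all genes tested) and in 0 above (against 6%). Of 27 autophagy genes none passed by either test and 3 were lower at an unadjusted p under 0.05, while 9 had mutant libraries below all Col-0 libraries, against 7.52% of all genes tested (median −0.09).

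Promoter sequence was read for the 29 genes, as the 300 bases upstream of each gene start in the deposited tables, from the RefSeq copy of the TAIR10.1 assembly. Motifs were searched on both strands. They were chosen after the values of the genes were seen, and the shares below were not tested. The evening element AAAATATCT, a sequence bound by clock-related MYB factors, was present upstream of 4 of the 23 genes that fell and of 2.95% of 19347 tested genes. The G-box CACGTG was present in 2 of the 23 (8.08% of tested genes), the sugar starvation box TATCCA in 3 (16.8%) and GAATC, the core bound by NIGT1 repressors, in 14 (45.6%). Of the 6 genes that rose, 2 held GAATC and none held the other motifs. The 4 windows with an evening element are shown 5′ to 3′ because 4 genes that fell share that motif, and that of BT2 because it was the nitrate regulator that fell. Capitals mark the evening element, the G-box and TATCCA, or their reverse complements. The windows are chr5:25997204-25997503 (plus strand) for MAF5, chr2:6922162-6922461 (minus strand) for MEE14, chr2:6946796-6947095 (plus strand) for AT2G15960, chr1:7612534-7612833 (plus strand) for AT1G21680 and chr3:17910739-17911038 (minus strand) for BT2.
MAF5: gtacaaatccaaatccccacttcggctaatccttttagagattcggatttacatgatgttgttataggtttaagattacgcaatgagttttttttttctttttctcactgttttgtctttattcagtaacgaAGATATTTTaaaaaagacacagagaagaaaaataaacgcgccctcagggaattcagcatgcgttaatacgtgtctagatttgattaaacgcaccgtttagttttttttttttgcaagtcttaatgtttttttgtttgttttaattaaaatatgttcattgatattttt
MEE14: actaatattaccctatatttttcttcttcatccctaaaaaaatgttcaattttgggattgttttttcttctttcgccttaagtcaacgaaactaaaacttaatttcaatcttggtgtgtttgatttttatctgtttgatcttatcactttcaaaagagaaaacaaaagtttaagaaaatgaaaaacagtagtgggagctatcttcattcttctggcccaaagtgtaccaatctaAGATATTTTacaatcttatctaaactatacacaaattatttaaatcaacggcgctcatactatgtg
AT2G15960: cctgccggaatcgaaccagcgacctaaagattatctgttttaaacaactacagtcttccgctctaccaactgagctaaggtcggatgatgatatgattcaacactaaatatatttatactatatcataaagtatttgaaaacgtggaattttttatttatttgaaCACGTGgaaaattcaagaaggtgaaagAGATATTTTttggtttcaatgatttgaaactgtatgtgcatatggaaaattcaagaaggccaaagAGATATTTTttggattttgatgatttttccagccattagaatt
AT1G21680: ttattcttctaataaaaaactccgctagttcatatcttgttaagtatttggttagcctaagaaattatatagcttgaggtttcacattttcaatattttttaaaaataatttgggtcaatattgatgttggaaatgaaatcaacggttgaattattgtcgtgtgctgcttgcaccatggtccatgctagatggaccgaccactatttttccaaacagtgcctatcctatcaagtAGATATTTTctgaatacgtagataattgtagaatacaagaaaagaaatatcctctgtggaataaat
BT2: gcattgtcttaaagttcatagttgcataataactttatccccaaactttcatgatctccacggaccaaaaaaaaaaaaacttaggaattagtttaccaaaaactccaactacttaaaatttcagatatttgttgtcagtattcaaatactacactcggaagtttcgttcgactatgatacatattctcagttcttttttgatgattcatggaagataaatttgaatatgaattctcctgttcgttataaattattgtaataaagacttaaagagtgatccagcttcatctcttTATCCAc
The AT2G15960 window holds the evening element 2 times, with a G-box before the first, and in each of the 4 windows the element reads in the reverse orientation. A match describes letters in a window and shows neither binding nor a cause.

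The same genotypes were then compared at day 2, in libraries that share no sample with those of day 0. There 279 genes passed by edgeR, 94 higher and 185 lower, or 1.44% of the genes tested. Of the 29 genes of day 0, 16 passed at day 2 in the same direction, which is 55.2% of the 29 and 5.73% of the 279, and 25 of the 29 had the same sign. NPF8.4 was at −4.11 (SE 0.31, adjusted p = 6.35e-05). FBP was at 311, 342 and 336 CPM in Col-0 and 123, 129 and 123 CPM in npf8.4-1 (−1.40, SE 0.09, adjusted p = 3.88e-06), about the same difference as on nitrate. AT5G32678 again had 0 reads in each Col-0 library and was at least 1203-fold higher in the mutant. BT2 was at 3.14, 2.22 and 4.70 CPM in Col-0 and 0.0287, 0 and 0.0899 CPM in the mutant (−6.29, SE 0.77, adjusted p = 0.0055).

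The other genes that passed at both days were AT1G75945, AT5G35935, AT3G05955, AT3G29644, AT2G44970, TPS11, ACBP3, MEE14, BBX17, AP4.3A, AT1G62630 and AT1G48100. The 13 that passed at day 0 and not at day 2 included RMA1, VICTR, AT2G15960, COR413IM1 and MAF5. RMA1 was at 17.7, 15.4 and 13.4 CPM in Col-0 and 15.1, 13.3 and 15.1 CPM in npf8.4-1 at day 2 (−0.10, adjusted p = 0.795). VICTR was at 13.9, 15.6 and 13.6 CPM and 12.4, 14.6 and 13.9 CPM (−0.08, adjusted p = 0.816). The MAF5 libraries did not overlap at day 2 either (−0.74, SE 0.18, adjusted p = 0.0706).

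Whether the difference itself changed between the days was tested with the interaction term. By edgeR 0 genes passed, with 1759 at an unadjusted p under 0.05 and a smallest adjusted p of 0.17, while DESeq2 called 269 genes. Of the 29 genes, 14 had an unadjusted interaction p under 0.05, against 9.06% of all genes tested. The genes were picked for their difference at day 0, so a smaller value at day 2 can follow from that choice. The smallest of these p-values were those of VICTR (−0.80, unadjusted p = 6.94e-05, adjusted p = 0.177), AT5G14360 (1.96, 0.000192, adjusted p = 0.188), RMA1 (0.74, 0.00025, adjusted p = 0.188) and AT3G24420 (1.68, 0.000416, adjusted p = 0.192). No gene is therefore shown by edgeR to differ between genotypes on nitrate alone. For BT2 the interaction was −3.51 (unadjusted p = 0.00682, adjusted p = 0.317), and for FBP 0.05 (unadjusted p = 0.688).

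**Figure D5:**
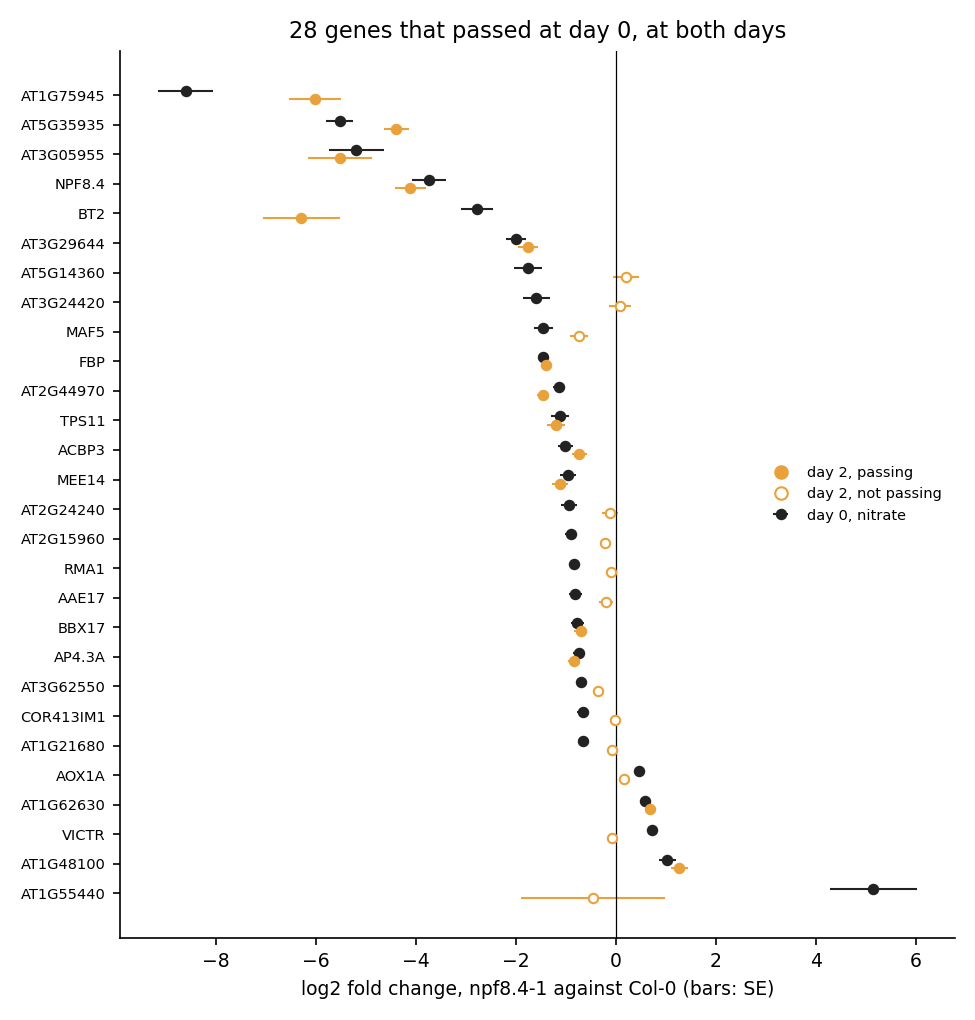
Log2 fold change of npf8.4-1 against Col-0 with its SE for 28 of the 29 genes, at day 0 (black) and at day 2 (orange, filled where passing by edgeR); AT5G32678 is left out because its fitted fold change depends on the prior count. RMA1 (−0.10) and VICTR (−0.08) lie near 0 at day 2, FBP lies at about the same place at both days, and BT2 lies further left at day 2 (−6.29).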

How the data were processed

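The authors deposited 1 table per library with a count of exon reads, a TPM value and an RPKM value for each of 37242 genes, per the file headers. TPM and RPKM deposited by the authors were not tested, because counts keep the depth. The build was TAIR10 and base calls were converted by bcl2fastq 2.17.1.14, according to the submitters' processing notes. Per the labels' protocols, libraries came from TRIzol-extracted RNA and a stranded mRNA kit. No aligner, counter or strand setting is named (not given in the sources used here), so reads of overlapping genes and close paralogs may be mixed. Coordinates are those of the tables, counted from 1.

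Counts of all 12 libraries were fitted in edgeR 4.0.16 (R 4.3.3, limma 3.58.1) with 4 group means, TMM scaling, filterByExpr and robust quasi-likelihood dispersion, which leaves 8 residual degrees of freedom. P-values were adjusted by Benjamini-Hochberg over the 19416 genes tested, with a threshold of 0.05. SE is the log2 fold change divided by the root of its F statistic. CPM uses TMM-scaled totals. Folds against a group without reads use 3 counts, summed over that group, as a floor, and ratios against 1 to 3 counts have an exact 95% counting interval. Floors and intervals cover counting error only. P-values measure the spread between pools of plants.

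The members, 38 gene lists and 7 marker lists, and the naming rule were chosen with earlier results of these data known. Of 1026 list entries 1013 matched a locus. The rule names NPF8.4, then up to 15 genes each way by fold change that passed with no overlap of libraries and a higher group at 5 CPM or more (23 genes), list members that passed, and a fixed set given always. The promoter motifs and the further list members quoted were chosen after their values were seen.

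Alternatives were DESeq2 1.42.0, DESeq2 size factors, library totals, other filters, the day 0 libraries alone, a replicate block and each day 0 library left out. Where a fit leaves out 1 library, its group keeps the other 2. The fit was first tested on simulated data. Replicate libraries all differed by more than counting noise.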

Additional observations from a re-analysis of the deposited data

How the results depend on the processing

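At day 0 the counts of 6 higher and 23 lower genes became 109 and 123 by the DESeq2 test. Library totals gave 3 higher and 23 lower. Leaving out 1 library gave 1 to 4 higher and 10 to 28 lower. At day 2 the DESeq2 test gave 259 higher and 525 lower genes, and for the interaction 56 and 213. Of 1101 tested list members, 7 passed by edgeR, beside 0.149% of all genes tested. DESeq2 called 30 of them, beside 1.19% of all genes tested, and 4 to 10 passed without 1 library. DESeq2 size factors, both filters and the day 0 libraries alone kept the day 0 counts of higher and lower genes within 1.5 times. A like count can hold other genes, as the day 0 libraries alone called 33 genes, of which 18 were among the 29. The cause of these differences was not tested.

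The replicate numbers are shared between genotypes. Deviations of same-numbered libraries correlated at 0.141, −0.051 and 0.064, and such libraries were not taken as pairs in the main fit. Correlations over all genes from 3 libraries per group cannot decide whether they are pairs. On the second principal component of the day 0 libraries, replicate 1 was the highest of its group in both genotypes (23.52 in Col-0 and 26.13 in npf8.4-1). With replicate number as a block the counts at day 0 were 47 higher and 126 lower over 12 libraries, and 48 and 203 in the day 0 libraries alone. The block gave 260 and 355 at day 2 and 15 and 28 for the interaction. At day 0 it called 30 and 40 list members, among 173 and 251 genes called in all. Under it NIA1, NIR1, LBD38 and LBD39 passed in the day 0 libraries alone, and BT2 did not.

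Some genes near 0 changed sign, or reached 0.00, among all the alternative fits that tested them. Over these fits NPF8.1 ran from −0.05 to 0.18, NPF8.3 from −0.06 to 0.00 and NPF8.5 from −0.19 to 0.05. HPR1 ran from −0.10 to 0.06, PLGG1 from −0.22 to 0.04, FLC from −0.07 to 0.85 and CFBP1 from −0.15 to 0.02. Each of the 29 genes kept its sign. Genes of a few reads, such as FLC and AT1G55440, are limited by depth.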

Other observations

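Beyond the lists, other genes than CIPK3 stood just outside the edgeR threshold at day 0. AT5G61590, annotated as an integrase-type DNA-binding protein, was at −0.86 (SE 0.15, adjusted p = 0.0503), the protein kinase gene AT5G66790 at −1.04 (adjusted p = 0.0541) and the TPR protein gene AT2G29670 at −0.78 (adjusted p = 0.0621). On the higher side, the pseudogene AT5G13655 was at 2.76 (adjusted p = 0.0621). By chromosome, the 29 genes were 8 of 5118 tested on chromosome 1, 7 of 2902 on chromosome 2, 6 of 3837 on chromosome 3, 2 of 2967 on chromosome 4 and 6 of 4524 on chromosome 5.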
